A study of Mus musculus with 40 samples.

Results

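The lysosome genes described here are 33 mouse genes whose products work in or on the lysosome. They were taken by name from gene function and not from any measured value, but with earlier results of these data known. They are 8 proteases, 7 glycosidases, 6 genes for the handling of lipids and sphingolipids, 5 membrane proteins, 5 parts of the proton pump, the growth factor precursor Grn and the transcription factor Tfeb. Of these 33 genes, 32 were found by their symbol among the 29411 gene symbols of the arrays. Tfeb had no probe under that symbol. They were read by 47 probes, and for the 14 genes with more than 1 probe the probe with the highest mean signal over 38 arrays was used.

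The study followed C57BL/6J mice, weaned at 3 to 4 weeks of age, and measured RNA from subcutaneous stromal vascular cells (SVCs) on Agilent 1-colour arrays. A low-fat control group (LFC) had a diet with 10% of its calories as fat, and a high-fat group (HFC) had a diet with 60% of its calories as fat and added sucrose. In 3 more groups the high-fat diet came with 5 µg, 20 µg or 75 µg of KAL-1, a plant-based formulation (HF5, HF20 and HF75). Each group held 30 mice, of which 5 were killed at intervals of 3 weeks, and the labels do not say how many mice an array stands for, while the design text speaks of 3 biological replicates. LFC and HFC had 11 arrays each, 1 for each label: week 0, the days 1, 6, 10 and 14, and the weeks 3, 6, 9, 12, 15 and 18. HF5 had 6 arrays (weeks 3 to 18), and HF20 and HF75 had 5 each (weeks 3 to 15). Week 0 is another label for day 14, the point from which the weeks run. With 1 array for each diet and time label, the spread behind each p-value is the spread between these arrays, which differ in time, and not that between mice.

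Lysosomes are acidic compartments in which proteases, glycosidases and lipid-cleaving enzymes break down material from outside the cell and from the cell itself. A proton pump in the membrane keeps them acidic, membrane glycoproteins line them, and Tfeb switches on many of their genes. Macrophages hold many lysosomes, and in fat tissue macrophages take up and break down lipid from adipocytes there.

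A level below is the log2 of a probe's deposited processed signal after subtracting the log2 of the 75th percentile of the same array. It compares 1 gene between arrays, and levels of different genes are not compared. Of the 38 arrays with a clear label, 2 stood apart from the rest. On the LFC week 3 array only 17.2% of probes were well above background, the 75th percentile was 8.12 intensity units, and 10 of the 32 lysosome genes passed the same mark. On the LFC day 14 array the scanner software marked 9104 spots as outliers and 30 of the 32 genes could be read, Gla and Scarb2 being dropped. Ranked over genes, their median correlation with the remaining arrays was 0.446 (week 3) and 0.470 (day 14), and it was 0.832 to 0.941 for each of the other 36. The titles of the day 6 arrays start with P5 and those of all others with P4, which is not explained. The LFC week 18 array differed in its cell markers: the median level of 8 fibroblast genes was -5.83 there, that of 12 adipocyte genes -5.40, and that of 6 neutrophil genes 6.32.

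The labels name the cells both as SVCs and as infiltrating macrophages, and the markers of more than 1 cell type were present. On each HF20 and HF75 array 14 of 14 macrophage markers were well above background, as were 8 of 8 fibroblast markers. The median level of the macrophage markers ran from 0.42 to 1.80 in HF20 and from 0.35 to 1.17 in HF75. Adipocyte markers were present too, with a median level from 0.42 to 5.33 in HF5 and from 0.84 to 6.07 in HFC. In such mixed samples fewer cells of a type and less RNA per cell cannot be told apart.

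Outside the LFC week 3 array, 28 of the 32 genes gave a signal well above background wherever they were read. Over the 36 arrays other than LFC day 14 and week 3 a gene's level spanned from 1.70 to 7.97 log2 units, with a median span of 2.90. Mcoln1, which codes for a calcium channel of the lysosomal membrane, had the narrowest span, from 1.84 on HFC day 14 to 3.54 on LFC day 10. Grn had the widest, from 0.54 on HF75 week 12 to 8.51 on HFC day 6, but its probe was saturated on 32 of the 38 arrays. Among genes whose probe was saturated on no array, Tpp1 had the widest span, from -2.20 on HFC week 18 to 4.08 on LFC week 0. This low end comes from a single array. A second Tpp1 probe read -2.16 there and -1.69 on LFC week 18, where the probe used read 3.56. The lowest and the highest values gathered on few arrays. HF5 week 3 held the lowest value of 8 genes, HFC day 1 held the lowest of 6 and the highest of 7, and LFC day 6 held the highest of 6.

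The median level of the 32 genes on an array was 2.57 in LFC (lowest 0.14 on day 14, highest 3.18 on day 6), 2.57 in HFC (1.71 on week 18 to 2.97 on week 6) and 2.45 in HF5 (2.19 on week 3 to 3.18 on week 6). In HF20 it was 2.72, 2.60, 2.61, 2.65 and 2.52 for weeks 3, 6, 9, 12 and 15. In HF75 it was 2.57, 2.35, 2.26, 2.02 and 2.08 for the same weeks, so that 4 of the 5 HF75 arrays lay below the lowest HF20 array.

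**Figure D1:**
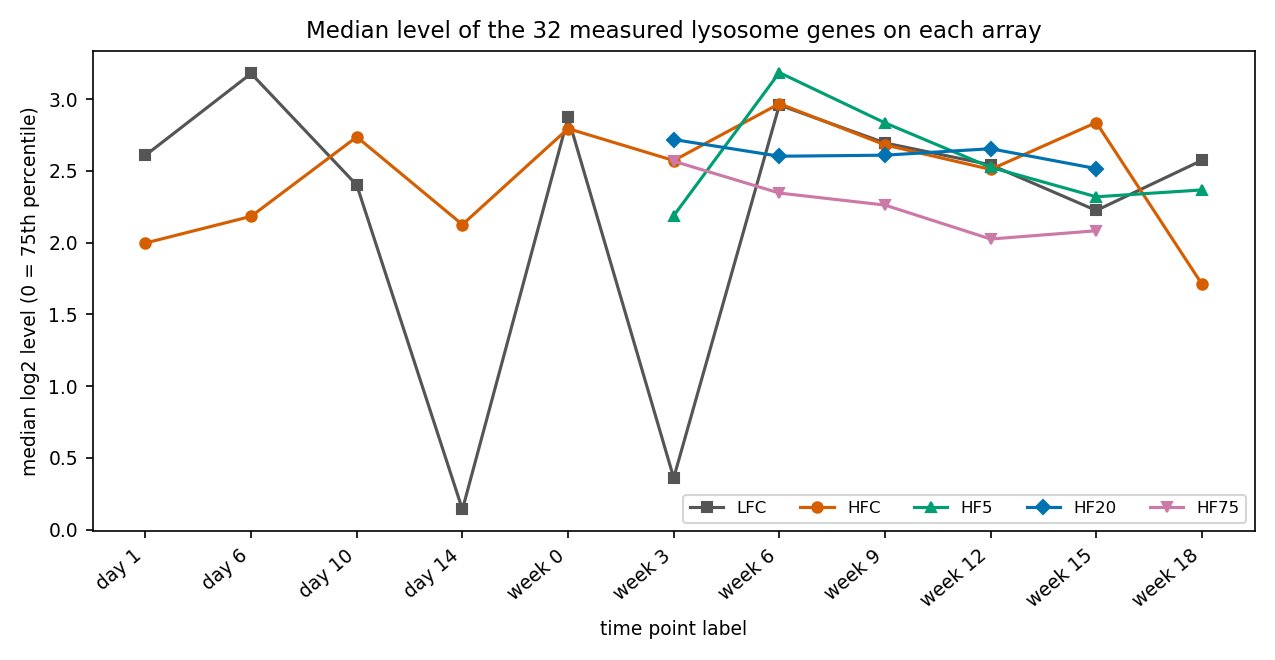
Median level of the 32 lysosome genes on each of the 38 arrays (log2 of signal over the array's 75th percentile) against the time label, with 1 line for each diet. The LFC day 14 and week 3 arrays, which stand apart, lie lowest at 0.14 and 0.36 (the floor of the week 3 array), and the HF75 arrays run from 2.57 at week 3 to 2.02 at week 12.

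The diets were compared gene by gene with limma, with the time label as a block, and a gene is called where its p adjusted over all genes tested is under 0.05. Between HF75 and HF20, over weeks 3 to 15, 5 of the 32 lysosome genes were called, or 15 of 32 at an unadjusted p under 0.05. Over all genes 8.33% of 22425 were called, 4.83% higher and 3.50% lower in HF75, and 6411 had an unadjusted p under 0.05. The 5 lysosome genes, Psap, Galc, Npc2, Atp6v1b2 and Tpp1, were all lower in HF75. Of the 32 genes, 26 had a negative difference, with a median of -0.56 beside -0.05 over all genes. By week the median difference was -0.15, -0.26, -0.50, -0.80 and -0.53 at weeks 3, 6, 9, 12 and 15, and 21, 23, 24, 24 and 24 of the 32 genes were lower in HF75. It was thus smallest at weeks 3 and 6 and largest at week 12. The median over all genes is given only for the 5 weeks together, so the weekly values stand without that background.

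**Figure D2:**
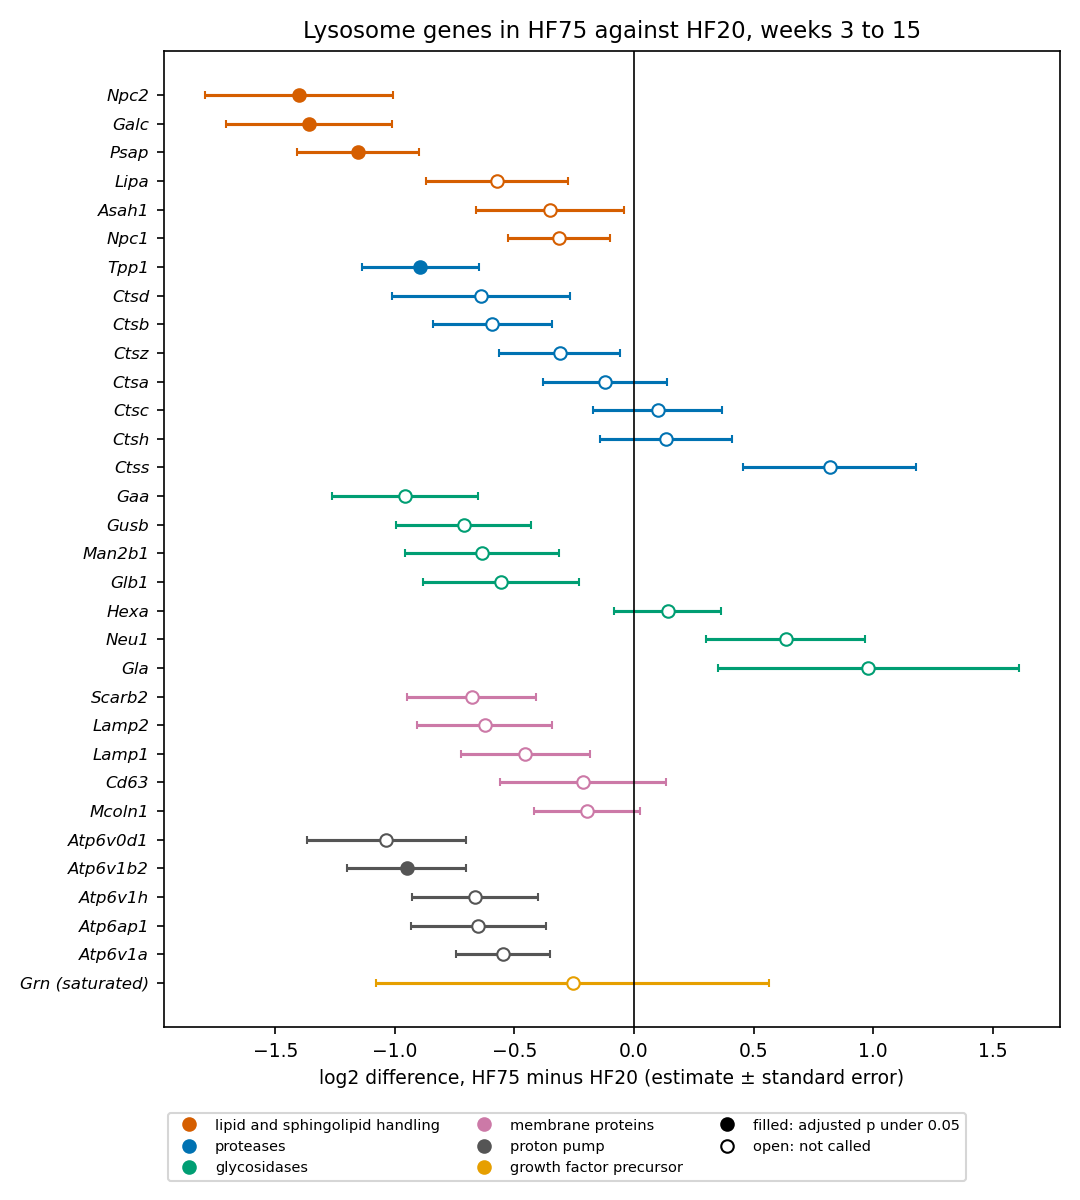
Log2 difference between HF75 and HF20 for each of the 32 lysosome genes (limma estimate with its standard error as bars, 5 arrays a diet), coloured by role, with filled points for the 5 genes called. The estimates run from -1.40 for Npc2 to 0.98 for Gla, and 26 lie below 0. The Grn estimate comes from a saturated probe and is not a fold.

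Among the genes of lipid and sphingolipid handling 3 of 6 were called, beside 8.33% of all genes. A negative difference was found for 6 of 6, with a median of -0.86. Psap codes for prosaposin, which is cut into the saposins that help enzymes reach sphingolipids. Its level in HF75 was 3.65, 3.37, 3.79, 3.22 and 3.39 at weeks 3, 6, 9, 12 and 15. In HF20 it was 4.50, 4.70, 4.27, 4.99 and 4.73, so the groups did not overlap, and the lowest HF20 array lay above the highest HF75 array. In HFC it ran from 3.52 to 5.19 with a median of 4.65, in HF5 from 3.24 to 4.58 with a median of 4.37, and in LFC from 0.36 (week 3, the floor of that array) to 5.70 with a median of 4.59. The difference was -1.16 (SE 0.26, adjusted p = 0.0209), a 2.23-fold lower level, and HF75 was lower in 5 of 5 pairs. Here and below, overlap and counts of pairs describe the values behind an estimate and add no support to it. The share of all genes with such a pattern is not given. A second Psap probe read 2.40, 1.05, 2.58, 1.54 and 1.75 in HF75 and 3.47, 4.17, 3.17, 4.10 and 3.38 in HF20, again without overlap.

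Npc2 codes for a protein that carries cholesterol within the lysosome. Its level in HF75 was 3.06, 2.39, 3.35, 3.21 and 2.57 at weeks 3, 6, 9, 12 and 15, and in HF20 2.89, 4.82, 4.57, 4.77 and 4.53. The groups overlapped at week 3 alone, where HF20 was low. HFC ran from 2.23 to 4.30 (median 3.28), HF5 from 2.76 to 5.40 (median 3.45), and LFC from 0.78 to 5.48 (median 3.32), with LFC day 10 dropped. The difference was -1.40 (SE 0.39, adjusted p = 0.0409), 2.65-fold, with HF75 lower in 4 of 5 pairs. Npc1, which takes over cholesterol from Npc2, differed by -0.31 and was not called.

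Galc codes for an enzyme that cleaves galactosylceramide, and its probe was dim. In HF75 its level was -6.03, -4.93, -5.63, -6.07 and -5.93, of which weeks 3 and 12 are the lowest value their arrays allow. In HF20 it was -5.70, -4.40, -3.50, -3.95 and -4.25, and all but week 3 lay above the highest HF75 value. HFC ran from -6.50 to -2.98 (median -4.85), HF5 from -5.82 to -4.32 (median -4.83), and the LFC arrays other than day 14 and week 3 from -5.80 to -3.19. The difference was -1.36 (SE 0.35, adjusted p = 0.0282), with HF75 lower in 5 of 5 pairs. With a normexp background correction it was 0.04 (adjusted p = 0.966), with no floor under dim values it was -1.69 (adjusted p = 0.0472), and a second Galc probe differed by -0.17. Lipa, the acid lipase, and Asah1, the acid ceramidase, differed by -0.57 and -0.35 and were not called.

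Of the proton pump genes 1 of 5 was called, beside 8.33% of all genes. An unadjusted p under 0.05 was found for 5 of 5, beside 6411 of 22425 genes. All 5 had a negative difference, with a median of -0.67. Atp6v1b2, a subunit of the part of the pump that splits ATP, had levels of -1.56, -2.12, -0.99, -1.96 and -1.76 in HF75 at weeks 3, 6, 9, 12 and 15. In HF20 the levels were -1.30, -0.63, -0.81, -0.28 and -0.63. Only the HF20 week 3 array lay within the HF75 range. HFC ran from -2.24 to -0.15 (median -1.07), HF5 from -3.23 to -0.46 (median -1.13), and LFC from -5.37 on day 10 to 0.36 on week 3, where the value is the floor of that array (median -1.30). The difference was -0.95 (SE 0.25, adjusted p = 0.0312), 1.93-fold, with HF75 lower in 5 of 5 pairs. Atp6v0d1, of the part of the pump that sits in the membrane, differed by -1.04 (adjusted p = 0.0651) and was lower in 5 of 5 pairs. Atp6v1h, Atp6ap1 and Atp6v1a differed by -0.67, -0.65 and -0.55.

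Of the proteases 1 of 8 was called, beside 8.33% of all genes, and their differences went both ways, with a median of -0.22. Tpp1, which takes 3 residues at a time from the end of peptides, had levels of 2.63, 2.65, 2.73, 1.87 and 3.16 in HF75 and of 3.15, 3.35, 3.42, 3.58 and 4.01 in HF20. The ranges touched only where HF75 week 15 and HF20 week 3 lay side by side. HFC ran from -2.20 on week 18 to 3.98 (median 3.38), HF5 from 2.46 to 3.76 (median 3.26), and LFC from 0.10 to 4.08 (median 3.53), with LFC day 10 dropped. The difference was -0.89 (SE 0.24, adjusted p = 0.0361), 1.86-fold, with HF75 lower in 5 of 5 pairs, and a second Tpp1 probe differed by -0.37. Among the cathepsins, which cut proteins at acid pH, Ctsd differed by -0.64, Ctsb by -0.59, Ctsz by -0.31 and Ctsa by -0.12. Ctss differed by 0.82 and was higher in HF75 in 5 of 5 pairs, and Ctsh and Ctsc differed by 0.13 and 0.10. None of these 7 cathepsins was called by limma. The Ctsb probe was saturated on 3 of the 5 HF20 arrays and on 0 of the 5 HF75 arrays, so its HF20 levels are lower bounds there. Second probes of Ctsd, Ctsb and Ctsz differed by -1.91, -1.01 and -0.71, and the other Ctsa probes by -0.33 and -0.04.

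Of the glycosidases, which strip sugars from glycoproteins, glycolipids and glycogen, 0 of 7 were called by limma and 2 had an unadjusted p under 0.05. Over all genes 8.33% were called, and the count at that p stands with the proton pump genes above. Gaa, which breaks down glycogen, differed by -0.96 (adjusted p = 0.0640) and was lower in HF75 in 5 of 5 pairs. Gusb, Man2b1 and Glb1 differed by -0.71, -0.64 and -0.56, and Hexa by 0.14. Gla differed by 0.98 and Neu1 by 0.63, each with HF75 lower in 2 of 5 pairs. Neu1 was the 1 gene of the 14 with more than 1 probe whose probes differed in sign, its second probe giving -0.23.

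Of the membrane proteins 0 of 5 were called by limma, beside 8.33% of all genes, and 5 of 5 had a negative difference. An unadjusted p under 0.05 was found for 2, and the count of all genes at that p stands with the proton pump genes above. Scarb2, the receptor that brings glucocerebrosidase to the lysosome, differed by -0.68 and Lamp2 by -0.62, while Lamp1, Cd63 and Mcoln1 differed by -0.45, -0.21 and -0.20. For Grn, whose product progranulin is taken to the lysosome and cut into granulins, no fold is given, since its probe was saturated on 5 of 5 HF20 arrays and 3 of 5 HF75 arrays. Its level on HF75 week 12 was 0.54, while a second Grn probe read 2.57 there and 2.53 to 2.93 on the other 4 HF75 arrays. This second probe read 2.96, 3.56, 3.77, 3.67 and 3.11 in HF20 at weeks 3, 6, 9, 12 and 15, above each HF75 array, and differed by -0.73.

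Tfeb could be followed only through a dim probe under its older symbol Tcfeb, whose level ran from -5.51 to -2.54 in HF75, from -4.15 to -3.39 in HF20 and from -4.56 to -3.19 in HFC. The difference between HF75 and HF20 was -0.37 (adjusted p = 0.567), and Tcfeb was called in no comparison made here.

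**Figure D3:**
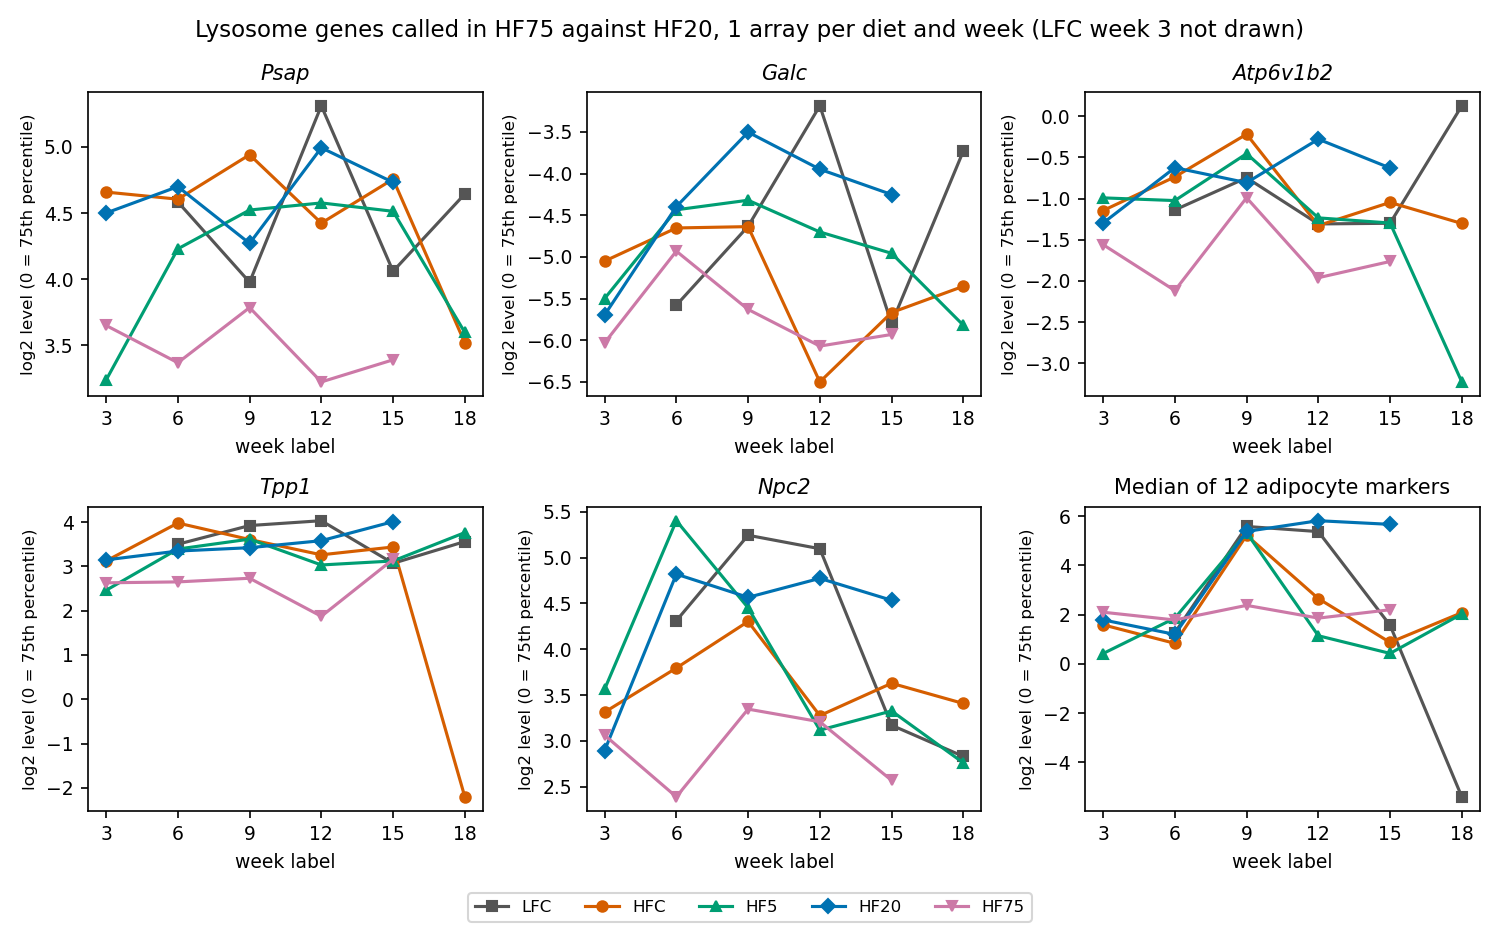
Levels of Psap, Galc, Atp6v1b2, Tpp1 and Npc2 and the median level of 12 adipocyte markers by week for the 5 diets (log2 of signal over the array's 75th percentile, 1 array a point, LFC week 3 not drawn). Psap lies from 3.22 to 3.79 in HF75 and from 4.27 to 4.99 in HF20, and the adipocyte markers are near each other in these diets at weeks 3 and 6 and apart from week 9 on.

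Of 47 further lysosome genes tested between HF75 and HF20, 4 were called lower and 1 higher, beside 8.33% of all genes. Of the 47, 24 had an unadjusted p under 0.05, beside 6411 of 22425 genes, and 38 had a negative difference, with a median of -0.61. The 4 lower genes, named after their values were seen, were Atp6v0a1 (-1.58, adjusted p = 0.0194), Atp6v1e1 (-1.29, adjusted p = 0.0170) and Atp6v1c1 (-0.89, adjusted p = 0.0328), which are more subunits of the proton pump, and Aga (-1.19, adjusted p = 0.0286), which cleaves the link between sugar and asparagine. The higher gene was Laptm4a (1.21, adjusted p = 0.0183), a membrane protein. Each of these 5 differed in the same direction in 5 of 5 pairs, which are the pairs on which it was called. The median level of the 49 further genes on the arrays ran from -0.06 to 0.34 in HF75 and from 0.51 to 1.14 in HF20, without overlap.

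Genes that sort enzymes to the lysosome and genes that sense nutrients at its surface were read in the same fit, where 8.33% of all genes were called. Of 13 sorting genes 2 were called lower in HF75, Ap3d1 (-0.87) and Gga1 (-0.70), which help load vesicles, and the median was -0.33. Of 10 genes of the Tfeb family and of nutrient sensing 3 were called lower, Mtor (-1.27), Rptor (-1.004) and Rragc (-1.11), and the median was -0.35. Rragc codes for a GTPase that holds the mTOR kinase complex at the lysosome. Of 4 cathepsin inhibitors 1 was called, Cst7, which was higher in HF75 by 5.41 (SE 1.03, adjusted p = 0.0148). These genes too were named after their values were seen.

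Markers of other cell types and the brightness of the arrays differed between the same HF75 and HF20 arrays, and their part in the differences of the lysosome genes was not tested. The median level of the 12 adipocyte markers was 1.79, 1.20, 5.38, 5.82 and 5.67 in HF20 and 2.10, 1.78, 2.38, 1.86 and 2.20 in HF75 at weeks 3, 6, 9, 12 and 15. The median of the 12 gene differences was 0.19, 0.15, -2.66, -4.05 and -3.62, so these markers lay close together at weeks 3 and 6 and lower in HF75 from week 9 on. Of these markers 1 of 12 was called, Lep (-4.52, adjusted p = 0.0218), and 8 had an unadjusted p under 0.05. The median of 10 immediate-early genes was 4.98, 4.58, 1.25, -0.44 and 2.82 in HF20 and 4.38, 5.14, 3.89, 4.71 and 5.39 in HF75, and 3 of 10 were called higher in HF75. At week 9 the title of the HF20 array carries the unexplained letters WS and that of the HF75 array does not. Adipocyte and immediate-early genes on the WS arrays are given further below, and the part of this label was not tested. Of the macrophage markers 2 of 14 were called lower, Cd163 (-1.42, adjusted p = 0.0335) and Csf1r (-1.23, adjusted p = 0.0294), with a median of -0.47 over the 14. Of 7 markers of lipid-associated macrophages Spp1 was called higher (2.84, adjusted p = 0.0334), and of 8 fibroblast markers Dpt was called lower (-2.48) and Dcn higher (1.11). In the lists of endothelial cells, T cells, B cells, neutrophils, mast cells, skeletal muscle and erythroid cells limma called 0 genes, with 2 neutrophil genes at an unadjusted p under 0.05 and 0 in the other 6 lists. Their levels still differed widely between single arrays of 1 week: at weeks 9 and 12 the T cell markers had medians of 2.18 and 0.84 in HF75 and -2.67 and -3.66 in HF20, the B cell markers 2.35 and 1.71 beside -3.47 and -3.50, and the neutrophil markers -1.35 and 0.50 beside -2.78 and -5.25. The skeletal muscle markers had medians of 3.33 and 2.43 in HF75 and -1.64 and -2.74 in HF20 at weeks 9 and 12. At week 15 they had 1.59 in HF75 and 4.79 in HF20. At weeks 6 and 15 both the T and the B cell markers lay lower in HF75. The 75th percentile of the arrays ran from 469 to 781 intensity units in HF75 and from 796 to 1866 in HF20, without overlap. No HF75 array shared a slide with an HF20 array, so diet and slide cannot be told apart here. The pairs of weeks 6 and 9 were also scanned on different dates.

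The calls between HF75 and HF20, those of the 5 lysosome genes and those of the other lists alike, depended on which time points were in the fit. Over weeks 3 and 6 alone, where the adipocyte markers lay close together, limma called 0 of 32 lysosome genes and 0 over all genes, with 0 at an unadjusted p under 0.05, but only 2 pairs were left. This choice was made after seeing the data. There Psap differed by -1.09, Npc2 by -1.13, Atp6v1b2 by -0.88, Tpp1 by -0.61 and Galc by -0.43. Leaving out week 6, week 12 or week 15 left 0 of 32 genes called, with 13, 9 and 10 at an unadjusted p under 0.05, leaving out week 9 left 1, Psap, and leaving out week 3 gave 6, with Gaa added. Over all genes 0 were called without week 6 or week 15, 198 without week 12, 439 without week 9 and 3633 of 23886 without week 3, beside 1868 of 22425 with the 5 weeks. With 1 week left out Psap stayed between -1.32 and -1.002 (adjusted p 0.0190 to 0.160), Npc2 between -1.80 and -1.15 (0.0233 to 0.188), Galc between -1.62 and -1.17 (0.0220 to 0.159), Atp6v1b2 between -1.14 and -0.77 (0.0261 to 0.242) and Tpp1 between -0.99 and -0.69 (0.0354 to 0.303). With no block for the time label limma called 0 members and 1 gene, with 9 members at an unadjusted p under 0.05. Weighting the arrays with arrayWeights, fitting all 38 arrays at once or keeping only pairs scanned on 1 date left 0 members called too. The normexp correction moved the median of all genes from -0.05 to 0.25, and the lysosome genes' median of -0.52 stood below it. It gave 958 genes higher and 373 lower over all genes, beside 1083 and 785 without it.

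HF75 was compared with HFC in a fit of the arrays of these diets alone. The fit of HF75 against HF20 also held HFC and HF5 arrays, so counts of calls from these fits are not alike. Against HFC, HF75 gave 0 of 32 lysosome genes called by limma, beside 1.11% of 20659 genes, and 9 at an unadjusted p under 0.05, beside 3006 genes. Of the 32 genes 29 had a negative difference, with a median of -0.44 beside 0.03 over all genes. Psap in HFC was 4.66, 4.61, 4.94, 4.42 and 4.76 at weeks 3, 6, 9, 12 and 15, so that each HFC array of those weeks lay above the highest HF75 array. The difference was -1.19 (SE 0.21, adjusted p = 0.0575), with HF75 lower in 5 of 5 pairs, and the gene was not called. By role the median was -0.78 for the proton pump, -0.61 for lipid handling, -0.44 for the membrane proteins, -0.39 for the glycosidases and -0.36 for the proteases. Lipa (-0.91), Tpp1 (-0.87), Atp6ap1 (-0.81) and Atp6v1b2 (-0.78) were lower in 5 of 5 pairs with adjusted p from 0.160 to 0.213. These 4 genes and Psap were called when dim probes were kept in the test, a fit that called 6345 of 29411 genes. Of the 47 further lysosome genes Ctsk, a protease, was called lower (-1.50, adjusted p = 0.0484), and the median was -0.48. Over all genes, where 229 were called, leaving out 1 week gave 12 to 187, and 0 were called with no block for the time label, in 1 fit of all 38 arrays and over pairs scanned on 1 date, so the calls of this comparison were lost there. Macrophage markers lay lower in the same arrays, with 13 of 14 negative, a median of -0.996 and 8 at an unadjusted p under 0.05, as did the fibroblast marker Dpt (-2.43, adjusted p = 0.0377), and their part in this was not tested.

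The other comparisons of doses gave 0 calls among the lysosome genes by limma. HF75 against HF5 gave 0 of 32, beside 0.00446% of 22425 genes, with 8 at an unadjusted p under 0.05 (2251 over all genes), 29 negative differences and a median of -0.26. Of these 8, 3 were genes of lipid handling and 3 of the proton pump. HF20 against HF5 gave 0 of 32 beside 0% of all genes, with 2 at an unadjusted p under 0.05 (2454 over all genes) and a median of 0.20. HF20 against HFC gave 0 of 32 beside 0% of 22087 genes, with 1 at an unadjusted p under 0.05 (2632 over all genes). HF5 against HFC gave 0 of 32 beside 0% of 20842 genes, with Neu1 alone at an unadjusted p under 0.05 (1113 over all genes). These comparisons share arrays and are not independent of each other.

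Between HFC and LFC limma called 0 of 32 lysosome genes over 11 time labels, beside 0% of 20875 genes, and a t-test over the time labels called 0 too. The paper's t-test was between replicate values of a single time point, which 1 array for each diet and label does not allow. At an unadjusted p under 0.05 there was 1 gene with each test, beside 583 over all genes with limma. With limma it was Lipa, the lipase for cholesterol esters and triglycerides, at 0.70 (SE 0.27, adjusted p = 0.922), higher in HFC in 10 of 11 pairs. With the day 14 and week 0 arrays averaged 0 of 32 were called as well. Of the 32 genes 20 had a positive difference, and the median was 0.06. Without the labels of the 2 LFC arrays that stand apart 22 were negative and the median was -0.14. The further lists gave 0 calls by limma as well, with 3 genes of the 47 further lysosome genes at an unadjusted p under 0.05, 0 sorting genes, 0 nutrient sensing genes, 0 cathepsin inhibitors and 0 macrophage markers. Of the other marker lists 1 gene of lipid-associated macrophages, 1 of T cells and 3 immediate-early genes had an unadjusted p under 0.05. Named by the rule for those lists, Galns differed by -1.01, Atp6v0a1 by -0.79, Lgmn by 0.64, Gnptab by -0.72, Igf2r by 0.33, Tcfec by -0.82, Mtor by -0.62 and Mitf by 0.40, each with adjusted p = 0.922. The cathepsin inhibitors Cst3, Cstb and Cst6 differed by 0.62, 0.35 and -0.83, and the macrophage markers Mrc1, Cd163 and C1qa by 0.61, 0.64 and 0.54.

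At single time labels the 2 diets were compared by fold alone, with 1 array a diet and no test, and a gene counts as higher or lower in HFC at a difference of at least 2-fold. On day 1 the counts among the lysosome genes were 9 higher and 7 lower of 32, beside 33.8% and 20.7% of all measured genes. The lower genes included 3 cathepsins, Ctss (-4.95), Ctsc (-3.15) and Ctsh (-2.52), and the higher ones Galc (2.35), Npc1 (1.66), Lipa (1.53) and 2 other cathepsins, Ctsb (1.15) and Ctsd (1.07). On these arrays the adipocyte markers had a median of 5.86 in HFC and 2.91 in LFC, the T cell markers one of -4.23 and 1.89, the macrophage markers one of -0.55 and 0.78, and those of lipid-associated macrophages one of -2.83 and -0.33. On day 6 there were 3 higher and 11 lower of 32, beside 40.1% and 12.3%, with Npc2 (-3.25), Atp6ap1 (-2.45) and Gaa (-2.04) lowest. The 3 higher were Ctsc (1.49), Grn, whose probe is saturated on most arrays, and Galc, which was not well above background in LFC, and 2 were left with both arrays well above background. On day 10 there were 1 higher, Atp6v1b2 (4.47), and 1 lower, Gla (-1.06), of 30, beside 9.61% and 13.0%. The day 10 value of Atp6v1b2 comes from the LFC array, where it was -5.37 and not well above background, and with both arrays well above background 0 genes of 29 were higher.

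The day 14 and week 3 labels hold the LFC arrays that stand apart, and their counts rest on them. On day 14 there were 25 higher and 1 lower of 30, beside 37.3% and 43.0%, and at week 3 there were 13 higher and 6 lower of 32, beside 8.78% and 62.1%. At week 0 there were 0 higher and 0 lower of 32, beside 3.59% and 2.11%. That pair had the fewest genes past 2-fold of the 11 labels, but with the normexp correction 45.1% of all measured genes were past 2-fold there, and the fewest were at week 15 (9.41%). Later, at week 6, there were 4 higher and 1 lower of 32, beside 11% and 12.2%, and the 4 were proteases: Ctsc (2.01), Ctss (1.35), Ctsz (1.14) and Ctsb (1.13). On these week 6 arrays the macrophage markers had a median of 2.76 in HFC and 0.70 in LFC, and the skeletal muscle markers one of -1.73 and 6.54. At week 9 there were 0 higher and 0 lower of 32, beside 6.88% and 7.78%. At week 12 there were 2 higher and 6 lower of 32, beside 23.6% and 21.7%, with Galc (-3.31), at the floor of the HFC array, and Npc2 (-1.82) lowest. On these week 12 arrays the adipocyte markers had a median of 2.65 in HFC and 5.38 in LFC. The skeletal muscle markers had one of 5.10 and -3.73, the immediate-early genes one of 5.07 and -0.003, and the T cell markers one of -1.79 and -4.63. At week 15 there were 2 higher, Lipa (1.36) and Grn, and 0 lower of 32, beside 7.02% and 17.1%. For Grn no fold is given, as its probe was saturated on 9 of 11 LFC and 10 of 11 HFC arrays, and its second probe read 3.72 in HFC and 3.11 in LFC, less than 2-fold apart. At week 18 there were 1 higher, Npc1 (1.30), and 8 lower of 32, beside 26.3% and 19.8%, with Tpp1 lowest (-5.77). A second Tpp1 probe read -2.16 in HFC and -1.69 in LFC there, and the second probe of Grn, which is among the 8, read 2.58 and 3.27, both less than 2-fold apart. On these arrays the fibroblast markers had a median of 4.32 in HFC and -5.83 in LFC, the adipocyte markers one of 2.08 and -5.40, and the neutrophil markers one of 0.30 and 6.32. Over the 11 labels the median share of lysosome genes past 2-fold was 25%, with an SD of 27.9, beside 45.4% of all measured genes. The shares over all genes moved with the background correction and the normalization. With normexp they were 12.2% higher and 57.5% lower on day 1, with 11 and 5 lysosome genes, 10.6% and 11.9% on day 6, with 2 and 6, and 17.4% and 1.51% at week 3, with 17 and 0. At week 9 they were 39.3% and 4.03%, with 2 and 1, and at week 12 48.6% and 11.2%, with 2 and 8. With quantile normalization the day 6 shares were 19.9% and 22.8%, with 1 and 13. On day 1 they were then 22.6% and 26.6%, with 5 and 9, and on day 14 43.4% and 35.2%, with 17 and 3. At week 6 they were 10.3% and 11.8%, with 8 and 0, and at week 12 21.7% and 21.0%, with 5 and 5.

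The course within a diet was read as weeks 3 to 18 against days 1 to 14 and week 0, where age and time on the diet cannot be told apart. In LFC limma called 0 of 32 lysosome genes, beside 0% of 23642 genes, with 2 at an unadjusted p under 0.05 (1223 over all genes), both of the proton pump: Atp6v1b2 (1.69, SE 0.64, adjusted p = 0.794) and Atp6v1a (1.36, SE 0.45, adjusted p = 0.702). Their LFC values include -5.37 for Atp6v1b2 on day 10 and the week 3 array, at its floor of 0.36 for both. The median of the 32 genes was 0.21, and -0.20 without the LFC day 14 and week 3 arrays. With arrayWeights the LFC course gave 0 of 32, beside 1832 of 23642 genes. In HFC 0 of 32 were called by limma, beside 0% of all genes, with 0 at an unadjusted p under 0.05 (267 over all genes) and a median of 0.12. The difference between the diets in this change gave 0 of 32, beside 0% of all genes, with Atp6v1a alone at an unadjusted p under 0.05 (-1.51, adjusted p = 0.934; 416 over all genes). The lists named by rule from this course held Sort1, a sorting receptor, at 1.84 in LFC (adjusted p = 0.794).

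At week 9 the titles of 4 of the 5 arrays (LFC, HFC, HF5 and HF20) carry the letters WS, and these arrays were compared with those of weeks 6 and 15 with the diet as a block. Of the 32 lysosome genes limma called 0, beside 7.70% of 22404 genes, and 5 had an unadjusted p under 0.05, beside 6798 over all genes. These were Gla (-1.37, adjusted p = 0.0567), Atp6v1h (1.1, adjusted p = 0.0614), Gusb (0.65), Galc (0.69) and Neu1 (-0.74). The median of the 32 was 0.05, with 18 positive. Adipocyte markers differed on the same arrays, with 11 of 12 called higher at week 9 and a median of 3.55, and immediate-early genes with 10 of 10 called lower and a median of -3.49. These calls too rested on single arrays, as 0 genes were called over all genes in 8 of the 12 fits without 1 array, and with the slide or the scan date as a random block. Leaving out the HF20 week 9 array gave 1 lysosome gene, Gla (-1.86, adjusted p = 0.0225), beside 2437 of 21597 genes. Leaving out the HF20 week 15 array gave 3, Gla (-1.55), Atp6v1h (1.22) and Neu1 (-0.92), beside 5023 of 22287 genes.

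The promoters of the lysosome genes were searched for CACGTG, which reads the same on both strands, and for TCACGTG on either strand, which holds CACGTG and is the core of an element through which Tfeb is known to act. The promoters are those of the RefSeq table for GRCm38.p6, each with 250 bases before the start of transcription and 50 after it. Of the 33 genes 27 had an entry, with 31 promoters, and Ctsh, Npc1, Atp6v1b2, Ctsb, Atp6v1h and Asah1 had none. CACGTG was in 9 of these 31 promoters (29.0%), beside 7.15% of the 32851 promoters in the table, and TCACGTG was in the same 9 (29.0%), beside 3.77%. The genes were Ctsa, Ctsd, Lamp1, Gaa, Gla, Glb1, Mcoln1, Atp6v0d1 and Atp6v1a, which are proteases, membrane proteins, glycosidases and parts of the proton pump. Psap, Galc, Npc2 and Tpp1, which were called lower in HF75 than in HF20, held neither motif in this window, nor did the 3 promoters of Tfeb. A match describes the letters and is not shown to be a bound site.

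Lamp1 held the most copies, with 4 CACGTG whose first letters lay 61, 45, 28 and 15 bases before the start. Ctsd, Gla and Mcoln1 held 2 each before the start, and the Ctsa promoter of its second start held 1 before it and 1 after it. The stretches below show where copies lie in 7 of the 9 promoters, for Ctsa only the one before the start, and beside them the 120 bases before the first Psap start, which hold none. They are given 5′ to 3′ along the gene's strand in GRCm38.p6, with each CACGTG in capitals: Lamp1 at chr8:13159080-13159160 (plus strand), Mcoln1 at chr8:3500428-3500499 (plus), Gla at chrX:134601174-134601252 (minus), Ctsd at chr7:142387900-142388077 (minus), Gaa at chr11:119267803-119267848 (plus), Glb1 at chr9:114401010-114401055 (plus), Ctsa at chr2:164833741-164833772 (plus) and Psap at chr10:60277508-60277627 (plus).
Lamp1: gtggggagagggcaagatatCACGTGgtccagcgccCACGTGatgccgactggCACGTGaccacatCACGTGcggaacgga
Mcoln1: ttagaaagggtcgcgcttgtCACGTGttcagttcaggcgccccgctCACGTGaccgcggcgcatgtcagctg
Gla: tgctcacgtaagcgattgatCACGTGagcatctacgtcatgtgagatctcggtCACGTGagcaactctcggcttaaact
Ctsd: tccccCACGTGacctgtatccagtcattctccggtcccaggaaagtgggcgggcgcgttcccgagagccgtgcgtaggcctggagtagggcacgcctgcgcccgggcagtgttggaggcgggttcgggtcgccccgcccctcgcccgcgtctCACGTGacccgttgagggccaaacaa
Gaa: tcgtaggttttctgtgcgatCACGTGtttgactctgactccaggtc
Glb1: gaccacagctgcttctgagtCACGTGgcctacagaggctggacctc
Ctsa: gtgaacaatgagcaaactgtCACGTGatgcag
Psap: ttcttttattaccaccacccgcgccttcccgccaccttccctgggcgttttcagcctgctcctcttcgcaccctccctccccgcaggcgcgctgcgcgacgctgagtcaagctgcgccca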

How the data were processed

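RNA was measured on 40 arrays, of which 38 were used; 2 week 18 arrays have conflicting dose labels. The submitters' processing notes name Agilent Feature Extraction 9.1, and the file headers name 10.5.1.1. The values are the deposited gProcessedSignal intensities (background subtracted, not normalized between arrays). The 40 per-sample columns of the deposited table, the authors' log2 fold changes against LFC, were not used; it gave the gene symbols. Intensities were scaled to the 75th percentile of each array, spots marked as outliers were dropped, and dim values were raised to the lowest one that counts as well above background on the same array (the HF75 week 9 file holds rounded values). A gene was tested where at least 50% of the arrays of a compared group read it well above background. Pairing by time label was checked: the correlation across genes had a median of 0.49 for HFC with LFC (11 labels, -0.27 to 0.74) and 0.18 for HF20 with HF75 (5, -0.17 to 0.57). These are not the rank correlations of levels between arrays, which are given above. Fits used limma 3.58.1 in R 4.3.3 (lmFit, eBayes, Benjamini-Hochberg), tables Python 3.11.15, NumPy 2.4.6 and pandas 2.3.3, figures matplotlib 3.10.9. Doses were compared with each other in 1 fit of 4 diets, and each dose with HFC in a fit of those 2 diets alone. Promoters come from RefSeq, GRCm38.p6. Members called in a comparison were given in each group; from further lists the 3 genes with the smallest adjusted p in HFC against LFC or in the course were named, and 1 of these is not reported here. The members and lists were chosen with earlier results of these data known.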

Additional observations from a re-analysis of the deposited data

Results flagged for a closer look

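Within a diet some lysosome genes had 1 array far from the others of that diet by Dixon's test. It was run on 96 groups of 5 or 6 arrays, and 9 were past its value, where chance gives about 1 in 20. In HF75, Gaa was 1.87 at week 6 beside 0.16 to 0.58 on the other arrays, Lipa was -0.66 at week 6 beside 0.12 to 0.26, and Scarb2 was 1.55 at week 15 beside 0.64 to 0.84. Grn was 0.54 at HF75 week 12 beside 6.26 to 7.16, on a probe saturated on 3 of the 5 arrays, while its second probe read 2.57 beside 2.53 to 2.93, and as Grn is alone in its role the median of that role was 0.54 as well. In HF20, Npc1 was -2.62 at week 15 beside -2.16 to -2.05, Npc2 was 2.89 at week 3 beside 4.53 to 4.82, and the median of the 7 glycosidases was 1.00 at week 3 beside 1.84 to 2.17. In HF5, Scarb2 was 0.49 at week 3 beside 1.24 to 1.65, Cd63 was 2.22 at week 3 beside 4.37 to 5.26, and Atp6v1b2 was -3.23 at week 18 beside -1.30 to -0.46. HF75 week 6 and HF5 week 3 each held 2 of the 9 values.

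The 2 week 18 arrays with conflicting dose labels belong to no comparison. On the second of them 2 of the 32 genes lay above and 2 below the 9 LFC arrays other than day 14 and week 3; the median of the 32 genes was 2.47. On the first, 21710 spots were marked as outliers, and 29 of the genes could be read, with a median of -0.14 and 29 below the same 9 LFC arrays.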

How the results depend on the processing

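Between HF75 and HF20, 5 genes were called. Over all genes 1868 were called, and the 11 alternatives gave from 0 (1 fit of all 38 arrays) to 1973 (no floor), with 0 in 3 of them. Among the 11 alternatives the count of lysosome genes was 5 with quantile normalization and with no floor, 4 with the mean of a gene's probes, 3 with dim probes kept, and 1 with a normexp background correction and without week 9. It was 0 with arrays weighted by limma's arrayWeights (10 at an unadjusted p under 0.05), with no replicate block for the time label (9), in 1 fit of all 38 arrays (4), over pairs scanned on 1 date (9) and over weeks 3 and 6 (0); the last 2 were chosen after seeing the data and hold fewer arrays. Leaving out 1 of the 5 weeks gave 0 to 6, beside 0 to 3633 over all genes. The median of the 32 genes was negative in each of these runs, from -0.60 to -0.26. Psap was called in 6 of the 11, Atp6v1b2 in 4, Galc and Npc2 in 3 and Tpp1 in 2. Galc turned to 0.037 with normexp, where its dim signal is read with an offset of 50, and its cause was not tested.

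Between HF75 and HFC 0 genes became 1 with quantile normalization and with the mean of a gene's probes (Psap), 2 with arrayWeights (Psap, Atp6ap1) and 5 with dim probes kept. The arrayWeights fit called 969 of 20659 genes and the fit with dim probes 6345 of 29411, beside 229 of 20659 in the main fit. Over all genes the 10 alternatives of this comparison gave from 0 to 6345 calls, with 0 in 3 of them. Between HF75 and HF5 0 became 1 with arrayWeights (Psap), beside 420 of 22425 genes. At week 9, 0 became 1 with the mean of a gene's probes (Atp6v1h) and 8 with arrayWeights, beside 9124 of 22404 genes, and leaving out 1 array gave 0 to 3, beside 0 to 5023 over all genes. The cause was not tested. The normexp correction moved the median of all genes from 0.03 to -0.17 in HF75 against HFC, from 0.03 to 0.21 in HF75 against HF5, from 0.02 to 0.18 at week 9 and from 0.27 to -0.62 in the LFC course. In the LFC course arrayWeights gave 0 of 32 lysosome genes, beside 1832 of 23642 genes. At single time labels normexp moved the shares of genes past 2-fold, as at week 0 from 5.70% to 45.1%. Signal over background limits Galc and Tcfeb, and saturation limits Grn, Ctsb and Ctsd.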

Other observations

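Other marker lists had no gene called between HFC and LFC or in the course of either diet by limma. Named by the rule given with the methods, the fibroblast markers Dpt, Lum and Pdgfra differed between HFC and LFC by 1.62, 1.38 and 1.08, the endothelial markers Emcn, Cdh5 and Tek by 1.48, 1.23 and 1.23, and the adipocyte markers Cidec, Adipoq and Cfd by 1.38, 1.17 and 1.1 (adjusted p = 0.922 for each). Markers of lipid-associated macrophages, Cd9, Gpnmb and Spp1, differed by 1.09, 0.75 and 0.64. The immediate-early genes Fos, Ier2 and Dusp1 differed by 1.91, 1.24 and 1.1. In the LFC course Cd3g (-2.61), Cma1 (-2.16) and Mcpt4 (-1.67) had adjusted p from 0.697 to 0.834.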
